A study of Sus scrofa with 32 samples.

Results

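H3K27ac was compared between untreated porcine (Sus scrofa) muscle satellite cells at 60 h of differentiation and the same kind of cells at 0 h. The libraries were chosen by their titles, which hold WT_60h or WT_0h and the H3K27ac antibody, and these 4 libraries, 2 at each time, are part of 32 samples, of which 24 have a peak list. All came from CUT&Tag, in which an enzyme tethered to an antibody cuts and tags the DNA beside a histone mark. WT is the label for cells outside the SGC-CBP30 arm. In that arm, labelled CBP, cells were given this compound, an inhibitor of the acetyl-lysine reader domains of CBP and p300, at a dose given as 5 with the unit uM/ml, through 48 h of proliferation and 60 h of differentiation. It enters here only where stated. The labels disagree in places: the treatment field says proliferation for the 60 h libraries as well, and the cell line and growth fields name C3H cells. Tissue and cell type are given as muscle and satellite cell, and no age, strain or donor is given. Nothing states that the 2 libraries of a group came from separate cultures, so every SD and p value measures the spread between libraries, which may be technical.

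H3K27ac is acetylation of lysine 27 on histone H3. It is written mainly by CBP and p300 and is found at active promoters and at active enhancers, where it is more specific to a cell type than the promoter mark H3K4me3. Satellite cells are the stem cells of skeletal muscle: they carry PAX7, divide as myoblasts under MYF5 and MYOD1, and on withdrawal of growth factors leave the cell cycle, switch on MYOG and MEF2 factors, fuse and build sarcomeres.

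The measurement was the position and width of each peak in the authors' list, and the sources used here do not give the read depth behind the lists. The lists as deposited held 19531 and 17338 peaks at 0 h and 23437 and 21694 at 60 h, of which between 62 and 159 lay on unplaced scaffolds and were set aside. Of 11 satellite cell and myoblast markers 8 had enough peak length to be tested, among them PAX7, MYF5, MYOD1 and DES. Both 0 h libraries had a base in 6 of the 11 and both 60 h libraries in 8. MYOD1 and DES had no base in either 0 h library. PAX3, CDH15 and CXCR4 had no H3K27ac base in any of the 4 libraries. The 9 annotated endothelial markers had none either, nor had 8 of 10 leukocyte, 5 of 7 adipocyte, 5 of 8 pericyte and smooth muscle and 3 of 5 glial markers. For fibroblast and fibro-adipogenic markers, PDGFRA, LUM, THY1 and DPP4 were at 0, and the summed length of the list was 3.59 and 3.87 kb at 0 h and 19.2 and 15.3 kb at 60 h. Over all genes tested the summed length was 5418 and 4506 kb at 0 h and 11834 and 10580.1 kb at 60 h. Summed over the list, satellite cell and myoblast markers had 14.3 and 13.4 kb at 0 h and 29.9 and 28.5 kb at 60 h, and muscle fibre markers 1.61 and 1.04 kb and then 15.9 and 14.5 kb, with ACTA1 at 0. The leukocyte list had 0.727 and 0.614 kb and then 1.47 and 2.13 kb, the adipocyte list 0.738 and 1.42 kb and then 1.90 and 1.89 kb, the pericyte list 1.33 and 1.90 kb and then 5.77 and 5.66 kb, and the glial list 0.210 and 0.300 kb and then 1.31 and 0.981 kb. In bulk cells, fewer cells of a type and less of the mark per cell cannot be told apart.

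At 60 h the H3K27ac peaks lay closer to genes and were wider. Within 2.5 kb of a gene end there were 5646 and 4723 peaks at 0 h and 8674 and 8210 at 60 h, 1.63 times as many on average. Farther away, at distal sites, there were 13805 and 12553 peaks at 0 h and 14604 and 13346 at 60 h, and the groups overlapped (ratio 1.06). The gene table gives no strand, so a gene end here is either the start or the end of a gene. The distal share was 71.0 and 72.7% at 0 h and 62.7 and 61.9% at 60 h.

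Width changed most at gene ends. The median peak there was 519 and 508 bp wide at 0 h and 719 and 678 bp at 60 h, while at distal sites it was 565 and 574 bp at 0 h and 634 and 621 bp at 60 h. Peaks of at least 2 kb numbered 320 and 294 at 0 h and 1289 and 1053 at 60 h, and those of at least 4 kb 6 and 12 against 158 and 112. At 0 h 16.6 and 16.7% of the peaks of at least 2 kb lay within 2.5 kb of a gene end, and at 60 h 45.3 and 42.7% did. DNA under peaks near gene ends covered 3.20 ± 0.432 Mb at 0 h and 7.61 ± 0.642 Mb at 60 h (SD, n = 2 each), and at distal sites 9.04 ± 0.537 Mb and 11.4 ± 0.947 Mb. The libraries of the 2 times did not overlap in these measures except in the number of distal peaks. An exact two-sided permutation test of 2 against 2 libraries cannot give a p below 0.333, which was its value in each measure but distal peak number (p = 0.667).

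**Figure D1:**
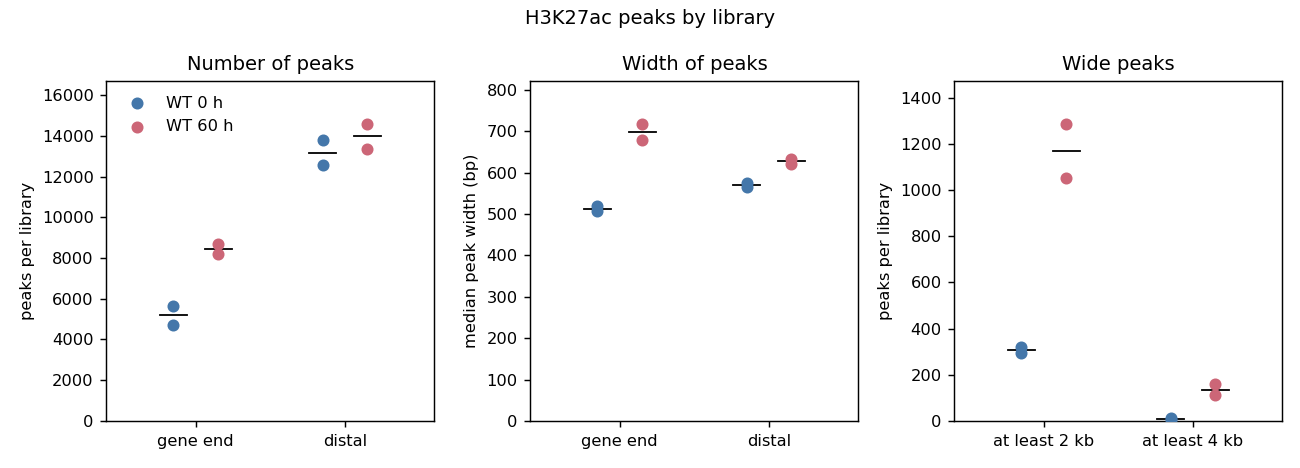
H3K27ac peaks in each library (points) with the group mean (line), at 0 h and 60 h of differentiation in untreated cells. Left, number of peaks within 2.5 kb of a gene end and farther away; middle, median peak width in bp; right, number of wide peaks. Gene-end peaks rose from at most 5646 to at least 8210, whereas the distal counts of the 2 times overlap.

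To ask where the mark appeared and disappeared, peaks of the 4 libraries were merged into 33926 regions. A region was called gained when both 60 h libraries and neither 0 h library had a peak in it, lost in the opposite case and kept when all 4 had one. Of all regions 8619 were gained (25.4%), 5456 lost (16.1%) and 7463 kept (22%), and the remaining 12388 were split within a group, 3328 of them seen in a single 0 h library and 5479 in a single 60 h library. Near gene ends 3380 of 10599 regions were gained and 764 lost, 4.42 gained for each lost. At distal sites 5239 of 23327 were gained and 4692 lost, a ratio of 1.12, and outside genes 1690 were gained and 2121 lost, a ratio of 0.797. Of the regions present in both 0 h libraries, 19.6% near gene ends, 42.0% at distal sites inside genes and 51.0% at distal sites outside genes had no peak at 60 h.

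The surplus of gains at gene ends was also found with lists of equal length. With every list shortened to the 17276 peaks of the shortest, ranked by the authors' p within each list, gene ends still gained 2635 and lost 854 regions, while distal sites gained 3519 and lost 5056, so the distal balance turned to loss. Without replicate 2 of 0 h, lost regions at gene ends numbered 1240. The gained share fell from 31.4% of regions that hold a gene end to 16.6% of those over 100 kb away, and the lost share rose from 3.53 to 26.0%.

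**Figure D2:**
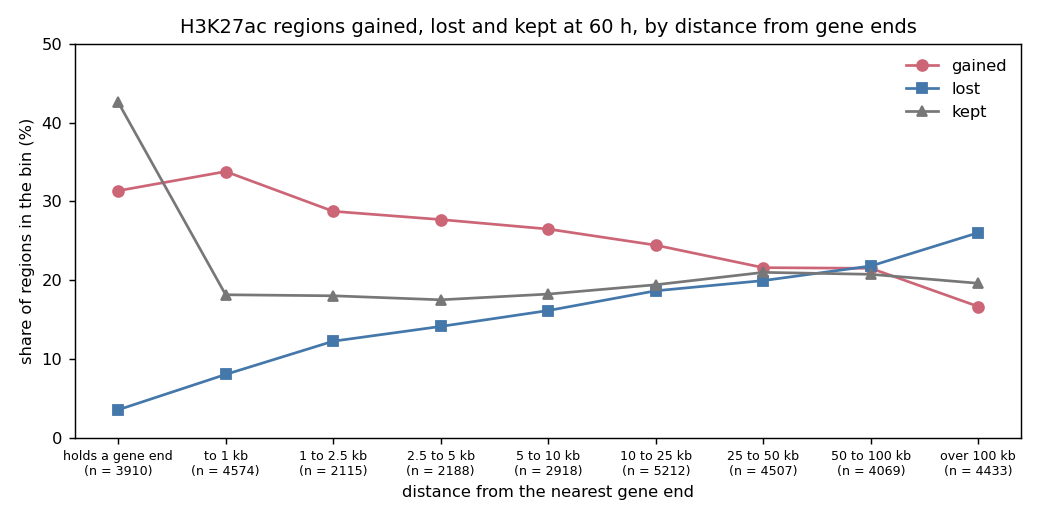
Share of H3K27ac regions gained, lost and kept at 60 h (vertical axis, percent) by distance from the nearest gene end (horizontal axis, bins with their number of regions). The gained line runs from 31.4% at gene ends down to 16.6% beyond 100 kb and the lost line from 3.53% up to 26.0%; the 2 lines cross between 25 and 100 kb.

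Regions kept at both times also grew. Their median ratio of peak length at 60 h to that at 0 h was 1.28, with 1.53 at gene ends and 1.15 at distal sites. Of the kept regions 54.7% had both 60 h libraries longer than both 0 h libraries and 20.5% the reverse; at gene ends the shares were 66.1 and 12.1%, and at distal sites 47.6 and 25.8%.

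H3K4me3 libraries of the same cells and times show what stood at these regions. Of the gained gene-end regions, 79.7 and 79.6% had an H3K4me3 peak in the 0 h libraries, before H3K27ac was listed there, and 86.5 and 86.7% had one at 60 h. In 78.2% of them H3K4me3 was present in all 4 libraries, and 6.04% had it in both 60 h and neither 0 h library. Over all gene-end regions the share was 80.0% in both libraries at 0 h and 83.5 and 83.4% at 60 h. Gained distal regions had H3K4me3 in 10.4% at 0 h in both libraries and in 16.1% at 60 h in both, and all distal regions in 9.70 and 10.1% at 0 h and 11.2% at 60 h in both.

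Lost regions had a lower share at 60 h than at 0 h, in both places. At gene ends 64.0 and 64.7% of them had H3K4me3 at 0 h and 58.2 and 57.9% at 60 h, and at distal sites 4.33 and 4.75% at 0 h and 2.02 and 1.92% at 60 h. H3K27me3, the mark of Polycomb silencing, was found at no more than 0.178% of gained, lost or kept regions in any untreated library. Over all regions its share was also low, from 0.0118 to 0.106% by library. In the inhibitor arm at 60 h, 44.4 and 34.2% of the gained regions held an H3K27ac peak, and 10.4 and 8.14% of the lost ones did; at 0 h these shares were 5.01 and 3.30% of the gained and 44.1 and 37.5% of the lost regions. Over all regions they were 26.7 and 22.4% at 0 h and 37.0 and 31.2% at 60 h, and over kept regions 69.9 and 65.5% at 60 h.

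**Figure D3:**
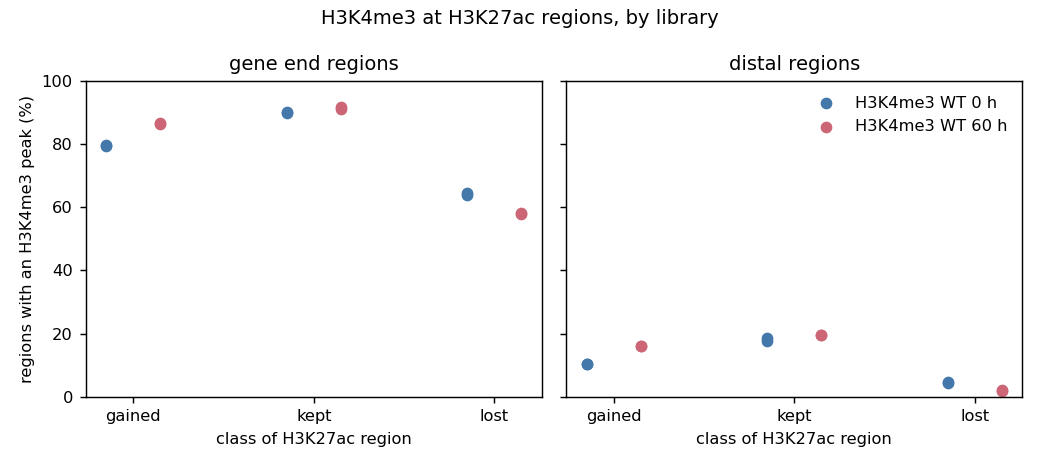
Share of H3K27ac regions that overlap an H3K4me3 peak (vertical axis, percent), for gained, kept and lost regions near gene ends (left) and at distal sites (right). Each point is 1 H3K4me3 library, blue at 0 h and red at 60 h. Gained gene-end regions are near 80% already at 0 h, and gained distal regions move from 10.4 to 16.1%.

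The widest distal regions were described one by one. The widest gained region lay inside LSP1, which encodes an actin-binding protein of leukocytes (Sscrofa11.1 chromosome 2, 1279541 to 1285331), and had no peak at 0 h and 5.79 and 5.51 kb at 60 h. The next were inside RAB5C, an endosome GTPase (4.95 and 4.52 kb), AHDC1 (3.89 and 4.53 kb), COL1A2, a chain of type I collagen (4.49 and 3.70 kb), and KDM4B, a histone demethylase (4.12 and 3.98 kb). H3K4me3 peaks appeared at 60 h in the LSP1, RAB5C and KDM4B regions and were at neither time in those of AHDC1 and COL1A2.

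The LSP1 region belongs to a stretch of chromosome 2 that held genes of fast muscle. TNNI2, fast troponin I, lies at 1251566 to 1253883, TNNT3, fast troponin T, at 1297826 to 1316865 and the uncharacterised gene LOC110259183, next to MRPL23, at 1361185 to 1370168. Within 100 kb of these genes there were 13, 18 and 17 gained regions, many of them shared, and 0 lost or kept ones. Over 19533 genes the median was 1 gained, 0 lost and 1 kept, and the 90th percentile of gained regions was 5. LOC110259183 had 0.469 and 0 kb under peaks at 0 h and 8.41 and 8.16 kb at 60 h. IGF2, the growth factor gene at 1469183 to 1496417, had no base in its windows in any of the 4 libraries.

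The widest lost distal regions were shorter. They lay inside SMG6, a factor of nonsense-mediated decay (chromosome 12, 48178334 to 48181306; 2.96 and 2.65 kb at 0 h), inside ST7 (2.86 and 2.61 kb), 7.28 kb from WNT7B, a WNT ligand (2.63 and 2.76 kb), inside ATXN7L1 (2.76 and 2.60 kb), and 36.7 kb from IGFBP2, an IGF-binding protein (2.70 and 2.43 kb). None had a base at 60 h. The region near IGFBP2 also had H3K4me3 peaks in both 0 h and neither 60 h library. Of the 3 widest kept distal regions, that inside NFIX, a factor of the myogenic programme, had 6.96 and 7.28 kb at 0 h and 9.72 and 9.98 kb at 60 h. That inside TXN2, mitochondrial thioredoxin, had 4.08 and 4.90 kb and then 9.40 and 8.84 kb. That inside UCK2 had 5.95 and 7.17 kb and then 7.40 and 7.10 kb, so its groups overlapped.

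Peaks within 10 kb of each other were joined into clusters, a view that does not use genes. Of 2573 clusters with enough peak length, 1528 were higher at 60 h (59.4%) and 383 lower (14.9%) by limma at an adjusted p below 0.05, with a median log2 change of 0.85. With quantile scaling, which gives all libraries the same distribution of lengths, 921 were higher and 740 lower. For clusters and genes, lists of equal length hold the 8947 peaks of the shortest of all 8 H3K27ac lists, inhibitor arm included. With these, 892 clusters were higher and 289 lower. Leaving out replicate 1 or 2 of 60 h left 616 or 692 higher, and leaving out replicate 1 or 2 of 0 h left 143 or 144 lower.

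The clusters that gained most H3K27ac were long. One inside RUNX1, a transcription factor of blood and of muscle progenitors (chromosome 13, 198377876 to 198517858), had 10.5 and 9.07 kb under peaks at 0 h and 54.1 and 49.8 kb at 60 h (log2 change 2.35 ± 0.19 SE, adjusted p = 0.000112). It holds 23 gained, 6 kept and 0 lost regions, and RUNX1 has 39 gained regions within 100 kb, the most of any gene. A cluster over TNS1, tensin 1 of focal adhesions (chromosome 15), had 17.5 and 14.8 kb and then 55.6 and 51.8 kb (adjusted p = 0.000588). A gene-free cluster on chromosome 3, 44818126 to 45032454, 124 kb from BCL2L11, had 36.3 and 37.4 kb and then 82.8 and 73.0 kb (adjusted p = 0.00214).

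Next came a cluster over ACTN4, a non-muscle alpha-actinin, and CAPN12, with 21.2 and 16.8 kb and then 48.2 and 49.9 kb (adjusted p = 0.00102). Another, on chromosome 5 over LOC110260611, had 19.3 and 13.0 kb and then 49.0 and 43.0 kb (adjusted p = 0.00128). In all 5 both 60 h libraries were above both 0 h libraries. Under quantile scaling the log2 change was 0.00 for the gene-free cluster and for ACTN4, and 0.31 for LOC110260611 (adjusted p = 0.17), since clusters of the same rank receive the same length.

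The clusters that lost most were shorter. That of CD96, a receptor of the immunoglobulin family, and ZBED2 (chromosome 13, 148156252 to 148201058) had 14.3 and 13.6 kb at 0 h and 4.20 and 4.26 kb at 60 h (log2 change -1.61 ± 0.14 SE, adjusted p = 0.000131). One inside MAML3, a Notch coactivator, had 9.84 and 9.90 kb and then 2.89 and 1.66 kb, and one 31.7 kb from CYSLTR2 had 6.01 and 7.27 kb and then 0.305 and 0.310 kb. RIN2, a regulator of endocytosis, had 6.47 and 6.30 kb and then 0.568 and 0 kb, and SDCBP2 7.79 and 7.46 kb and then 2.24 and 1.27 kb. Their adjusted p values by limma lay between 6.69e-05 for the cluster near CYSLTR2 and 0.000788 for RIN2.

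For genes, the value was the length of DNA under H3K27ac peaks within 5 kb of either end, and log2 changes are of that length plus 500 bp. Of 8968 genes with enough length, 4590 were higher at 60 h (51.2%) and 666 lower (7.43%) by limma at an adjusted p below 0.05, and the median log2 change was 0.77. In 2357 of the higher genes the 0 h libraries had no base at all, and in 447 of the lower genes the 60 h libraries had none. A group without a base adds no spread to the gene's own variance, which limma pools over all groups and moderates across genes. The SE and p values of such genes can therefore be too small. The split depends on how libraries are scaled. Quantile scaling, which moves the median to 0.00, called 1614 higher and 1629 lower. Lists of equal length, here of 8947 peaks as for clusters, called 2836 and 606 of 6361 with a median of 0.76. Leaving out replicate 1 or 2 of 60 h left 2096 or 2505 higher, and leaving out replicate 1 or 2 of 0 h left 298 or 376 lower. Gene groups below are therefore read against the 51.2% and 7.43% of all genes. A gene with no base at 0 h cannot fall, and the filter admits such genes through other libraries. Of the 8968 genes, 4798 had a base in both 0 h libraries and 7551 in both 60 h libraries.

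MYOG, MEF2C and MYOD1 had no H3K27ac peak listed within 5 kb of either end at 0 h and had peaks there at 60 h. MYOG (chromosome 9, 113783233 to 113785312), which starts terminal differentiation, had 0 kb in both 0 h libraries and 4.30 and 4.01 kb at 60 h (adjusted p = 5.45e-05), MEF2C, its partner, 0 kb and then 1.73 and 1.48 kb (adjusted p = 5.38e-05), and MYOD1, which commits cells to muscle, 0 kb and then 0.886 and 1.04 kb (adjusted p = 6.73e-05). Around MYOG 15 regions were gained, 0 lost and 2 kept within 100 kb, around MEF2C 10, 0 and 2, and around MYOD1 4, 2 and 1. MYF5, which acts in dividing myoblasts, had 5.29 and 5.55 kb and then 6.62 and 6.50 kb (log2 change 0.25 ± 0.21 SE, adjusted p = 0.348), and its neighbour MYF6 3.54 and 4.25 kb and then 7.51 and 6.09 kb (adjusted p = 0.061). For both genes the log2 change was below 0 with quantile scaling, at -0.65 and -0.08.

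PAX7, the marker of satellite cells, had H3K27ac peaks at both times, and the direction of its change depended on scaling. It had 3.96 and 3.39 kb at 0 h and 5.00 and 4.51 kb at 60 h, a log2 change of 0.33 ± 0.09 SE (adjusted p = 0.0274 by limma). With quantile scaling it was called lower, at -0.50 (adjusted p = 0.0203). The adjusted p was 0.0932 with lists of equal length, 0.0851 with a −log10 q of at least 5, 0.173 with windows of 2.5 kb and 0.076 with the 4 untreated libraries only. Its log2 change was 0.24 without replicate 2 of 0 h, 0.27 without replicate 1 of 60 h and 0.40 without replicate 2 of 60 h. MEF2D had 4.03 and 3.26 kb and then 5.04 and 4.10 kb (adjusted p = 0.342), with a log2 change of -0.53 under quantile scaling and -0.50 with lists of equal length. PAX3 and MEF2A had no base in any of the 4 libraries.

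Of 28 tested myogenic factors and partners 19 rose and 0 fell. With quantile scaling 14 rose and 5 fell, against 1614 and 1629 of all 8968 genes. A base was present in both 0 h libraries in 17 of 34 annotated members and in both 60 h libraries in 27. Their median log2 change was 1.39, and that of all genes 0.77. The examples given for this and the following lists were chosen, after their values were seen, among genes whose call held in every alternative that could test them. The TEAD factors, which bind the MCAT elements of muscle promoters, were among them: TEAD3 had 1.07 and 1.20 kb at 0 h and 7.14 and 7.24 kb at 60 h, TEAD1 0.385 and 0.879 kb and then 4.71 and 4.42 kb, and TEAD4 0 kb and then 1.45 and 1.12 kb. Their cofactors VGLL3 (1.21 and 1.31 kb, then 5.61 and 5.54 kb) and VGLL2 (0 kb, then 0.761 and 0.674 kb) rose as well. So did the homeobox factor SIX4, from 0.672 and 0.317 kb to 3.74 and 3.27 kb. NFATC1, a calcium-regulated factor, went from 0 kb to 0.816 and 0.684 kb.

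Satellite cell and progenitor genes rose rather than fell: 12 of 15 tested were higher and 0 lower, with a median of 1.34. With quantile scaling 7 were higher and 1 lower. Both 0 h libraries had a base in 11 of 27 annotated members and both 60 h libraries in 15. MET, the receptor for hepatocyte growth factor, had 0.894 and 0.927 kb at 0 h and 6.41 and 6.69 kb at 60 h (log2 change 2.32 ± 0.07 SE, adjusted p = 5.38e-05). DAG1, which encodes dystroglycan, had 0.440 and 0.444 kb and then 3.41 and 3.48 kb. MEGF10 and FGFR4, both receptors of satellite cells, had no base at 0 h and reached 1.19 and 1.13 kb, and 1.41 and 1.0 kb. The other 12 annotated members had no base in any untreated library.

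The repressors of myogenic factors split by gene. ID2, which sequesters the partners of MYOD1, had 0.833 and 1.12 kb at 0 h and 0 kb in both 60 h libraries (adjusted p = 0.000189), and HES1, the Notch effector, 0.775 and 0.952 kb and then 0 kb (adjusted p = 9.77e-05). ID3 had 4.03 and 3.66 kb and then 2.41 and 1.07 kb (adjusted p = 0.0298), which was 0.113 without replicate 1 of 0 h, 0.0949 without replicate 2 of 0 h and 1 with lists of equal length. ID1 had 1.48 and 1.30 kb and then 2.23 and 1.99 kb (adjusted p = 0.488; log2 change 0.47, and -0.25 with quantile scaling), in a locus with 11 gained, 1 lost and 12 kept regions. Of 18 tested ID and repressor genes 9 rose and 2 fell (median 0.72), and of 15 Notch genes 6 rose and 1, HES1, fell (median 1.0). NUMB, an inhibitor of Notch, went from 0 kb to 1.07 and 0.844 kb (adjusted p = 0.000118), and HEYL, another Notch target, had no base in the 4 libraries.

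Sarcomere genes formed one of the groups above the background. Of 44 tested contractile and sarcomere genes 31 rose and 0 fell, and the median log2 change was 1.40. With quantile scaling 20 rose and 5 fell, and the median of 0.56 stayed above the 0.00 of all genes. Of the 66 annotated members 15 had a base in both 0 h libraries and 42 in both 60 h libraries. Members with no base at 0 h could not fall in the lists as deposited. ACTC1, cardiac alpha-actin, had 0.700 and 0 kb at 0 h and 6.07 and 4.49 kb at 60 h (adjusted p = 0.00329), TTN, the spring protein titin, 0 kb and then 1.13 and 1.64 kb (adjusted p = 0.000255), and MYH7, slow myosin heavy chain, 0 kb and then 1.95 and 1.42 kb (adjusted p = 0.000725, and 0.284 with lists of equal length). Both 60 h libraries were above both 0 h libraries in all 3. The tropomyosins TPM1 (0 kb, then 2.79 and 2.63 kb) and TPM2 (0 kb, then 3.13 and 3.05 kb), the M-band protein MYOM3 (0 kb, then 2.68 and 2.28 kb) and the protease CAPN3 (0 kb, then 1.42 and 1.91 kb) rose from no base.

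Myosin light chains and troponins followed in part. MYL2 had 0.478 and 0.276 kb and then 2.97 and 3.34 kb, MYLPF 0 kb and then 1.45 and 1.78 kb, and MYL1 1.26 and 1.04 kb and then 3.54 and 4.04 kb (adjusted p = 0.00499, and 0.0807 with quantile scaling). DES, the muscle intermediate filament, had 0 kb and then 2.15 and 2.87 kb (adjusted p = 0.0165), with an adjusted p from 0.0672 to 0.0851 without any 1 library and 0.434 with lists of equal length. TNNT3 had 0 kb and then 2.49 and 1.67 kb (log2 change 2.35, adjusted p = 0.0447, and from 0.116 to 0.176 without any 1 library). Its log2 change was 1.06 (adjusted p = 0.402) with lists of equal length and 1.44 (adjusted p = 0.0931) with quantile scaling, and its adjusted p was 0.0546 with windows of 2.5 kb, 0.0539 with 100 bp added and 0.051 with no filter. TNNT1, slow troponin T, had 0.273 and 0.275 kb and then 0.674 and 0 kb, so the groups overlapped (log2 change -0.01, adjusted p = 0.994); the change was -0.63 (adjusted p = 0.0139) without replicate 1 of 60 h and 0.60 (adjusted p = 0.018) without replicate 2. CKM, muscle creatine kinase, had 0 kb and then 1.32 and 0.857 kb (adjusted p = 0.0649), and ACTA1, skeletal actin, had no base in any untreated library. The summed length of the fibroblast marker list was also higher at 60 h, with PDGFRA, LUM, THY1 and DPP4 at 0, and its part in these results was not tested.

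**Figure D4:**
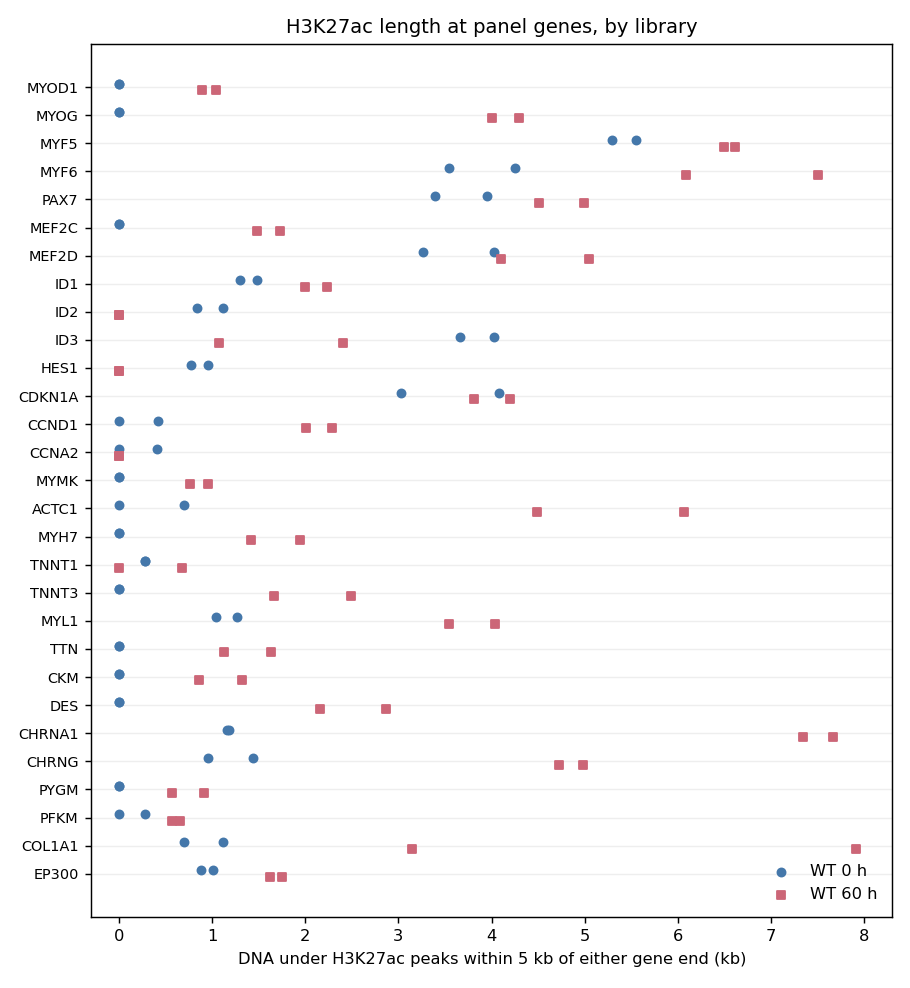
Length of DNA under H3K27ac peaks within 5 kb of either gene end (horizontal axis, kb) for 29 tested genes of a panel of myogenic, cell cycle, sarcomere and related genes. Circles are the 2 libraries at 0 h and squares the 2 at 60 h. CHRNA1, ACTC1 and MYOG stand far apart between the times, while CDKN1A, TNNT1 and CCNA2 overlap.

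Genes that carry the nerve signal to calcium release had a median of 1.53, the largest of the 20 lists as deposited, with 21 of 29 higher and 1 lower. With quantile scaling 14 were higher and 5 lower. Of the 43 annotated members 14 had a base in both 0 h libraries and 28 in both 60 h libraries. With lists of equal length the median of myogenic factors was larger, 1.62 against 1.60, and with quantile scaling that of satellite cell and progenitor genes, 0.73 against 0.61. CHRNA1, the alpha subunit of the acetylcholine receptor at the nerve-muscle junction, had 1.16 and 1.18 kb at 0 h and 7.35 and 7.67 kb at 60 h (log2 change 2.26 ± 0.07 SE, adjusted p = 5.38e-05). CHRND, the delta subunit, had 0 kb and then 3.95 and 3.83 kb, and its neighbour CHRNG, the fetal gamma subunit whose windows overlap those of CHRND, 0.951 and 1.43 kb and then 4.98 and 4.72 kb (adjusted p = 0.00056, and 0.0617 with lists of equal length). TRDN, triadin, rose from 0 kb to 2.64 and 2.70 kb, and SRL, sarcalumenin, from 0 kb to 2.06 and 1.81 kb. ACHE, which breaks down acetylcholine, went from 0 kb to 1.45 and 1.56 kb.

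Calcium handling genes on the same list included CACNB1, a subunit of the calcium channel (0.904 and 0.675 kb, then 4.67 and 4.28 kb), CASQ1, calsequestrin (1.03 and 1.10 kb, then 3.92 and 3.53 kb), and ATP2A2, a calcium pump (0 kb, then 1.92 and 1.57 kb). SLN, sarcolipin, an inhibitor of that pump, was the member that fell, from 1.01 and 0.989 kb to 0 kb (adjusted p = 5.67e-05). RYR1, the calcium release channel, had 0.767 kb in a single 60 h library and was not tested, although 8 regions were gained within 100 kb of it. CACNA1S, the voltage sensor, had no base.

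Of 25 dystrophin complex and costamere genes 19 rose and 0 fell (median 1.20), and 7 rose and 2 fell with quantile scaling. Both 0 h libraries had a base in 15 of 40 annotated members and both 60 h libraries in 25. Those that rose included CAV3, muscle caveolin (0 and 0.059 kb, then 1.34 and 1.96 kb), SORBS3 (0 kb, then 1.56 and 1.26 kb) and LAMA5, a laminin chain (0.356 and 0 kb, then 1.23 and 2.13 kb). Of 14 fusion genes 9 rose and 2 fell (median 1.10), and with quantile scaling 2 rose and 3 fell. MYMK, the fusogen of myoblasts, had 0 kb and then 0.957 and 0.756 kb (log2 change 1.44, adjusted p = 0.0196, and from 0.0709 to 0.102 without any 1 library; 0.42, adjusted p = 0.442, with windows of 2.5 kb and 0.44, adjusted p = 0.151, with quantile scaling), ANO5 0 kb and then 1.05 and 1.20 kb, and CD9, a tetraspanin that restrains fusion, fell from 0.266 and 0.346 kb to 0 kb.

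Glycolysis and glycogen genes rose in 16 of 25 cases and fell in 2, with a median of 1.29. Both 0 h libraries had a base in 12 of 38 annotated members and both 60 h libraries in 22. LDHA, lactate dehydrogenase, went from 0 kb to 1.99 and 2.0 kb, HK1, a hexokinase, from 0.273 and 0.334 kb to 2.33 and 1.57 kb, and PYGL, glycogen phosphorylase of liver, from 0 kb to 0.845 and 0.925 kb. PYGM, the muscle form, had 0 kb and then 0.909 and 0.562 kb (adjusted p = 0.00103, and 0.129 with quantile scaling). PFKM, the muscle phosphofructokinase, had 0.275 and 0 kb and then 0.658 and 0.564 kb (adjusted p = 0.0211), which was 0.109 without replicate 1 of 60 h and 0.077 without replicate 2, and its log2 change was -0.05 with quantile scaling. PFKP, the platelet form, fell from 0.318 and 0.363 kb to 0 kb. Of 24 mitochondrial and oxidative genes 12 rose and 2 fell, and their median of 0.66 was below that of all genes. FABP3, a fatty acid carrier (0 kb, then 3.21 and 3.49 kb), CPT1B (0 kb, then 1.48 and 1.21 kb), SLC25A4 (0 kb, then 1.04 and 1.04 kb) and SDHB (0 kb, then 1.05 and 0.732 kb) rose, and TFAM, a factor for mitochondrial DNA, fell from 0.316 and 0.280 kb to 0 kb.

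Genes of DNA replication and mitosis were the list with the highest share of falls. Of 35 S and M phase cell cycle genes 11 rose and 9 fell (median 0.36), 31.4 and 25.7% against 51.2 and 7.43% of all genes, and with quantile scaling 2 rose and 15 fell. CDK1, the mitotic kinase, went from 0.824 and 0.611 kb to no base (adjusted p = 0.000249). AURKA, a spindle kinase, had 0.925 and 0.710 kb, MYBL2 0.889 and 1.16 kb, FOXM1 0.605 and 0.588 kb and KIF20A 0.301 and 0.317 kb at 0 h, and none had a base at 60 h. AURKB, a kinase of the same family, went the other way, from 0 kb to 0.978 and 1.01 kb (adjusted p = 5.38e-05). CCNA2, cyclin A, had 0.411 kb in a single 0 h library (adjusted p = 0.332).

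Growth genes and genes of cell cycle exit were nearer to the background. With quantile scaling 6 growth genes rose and 5 fell, and 6 exit genes rose and 4 fell. Of 34 growth and D-type cyclin genes 16 rose and 3 fell (median 0.99). CCND3, cyclin D3, had 0.370 and 0.330 kb and then 3.62 and 3.73 kb, CCND1, cyclin D1, 0.415 and 0 kb and then 2.29 and 2.0 kb (adjusted p = 0.0117), and SPRED1, an inhibitor of growth signals, 0 kb and then 2.30 and 1.86 kb. The adjusted p of CCND1 was 0.0529 without replicate 2 of 0 h, 0.0698 without replicate 1 of 60 h and 0.055 without replicate 2 of 60 h. FOSB, an immediate early factor, fell from 0.541 and 1.04 kb to 0 kb. Of 23 cell cycle exit genes 13 rose and 0 fell (median 0.74): CDKN2C, an inhibitor of D-type cyclin kinases, had 1.21 and 1.54 kb and then 4.83 and 4.75 kb, GADD45A 0 kb and then 1.97 and 1.77 kb, and SESN2 0 kb and then 1.75 and 1.53 kb. CDKN1A, the inhibitor p21, had 4.08 and 3.03 kb and then 3.81 and 4.20 kb, so the groups overlapped (log2 change 0.16, adjusted p = 0.683; -0.66 with quantile scaling and -0.03 without replicate 2 of 0 h). CDKN1C, the inhibitor p57, had no base.

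Among the signalling lists, with quantile scaling 8 IGF genes rose and 0 fell, 9 TGF-beta genes rose and 2 fell, and 4 WNT genes rose and 7 fell. Both 0 h libraries had a base in 5 of 27 annotated IGF, 10 of 36 TGF-beta and 10 of 51 WNT genes. Both 60 h libraries had one in 13, 19 and 12. Members with no base at 0 h could not fall in the lists as deposited. With the lists as deposited, of 16 IGF genes 12 rose and 0 fell (median 1.19): FOXO1, which insulin signals restrain, had 0.704 and 0.333 kb and then 5.14 and 5.09 kb, IGF2BP3 0.423 and 0 kb and then 2.44 and 1.99 kb, RPS6KB1, a kinase of protein synthesis, 0 kb and then 1.56 and 1.54 kb, and IRS2, an adaptor of the insulin receptor, 0 kb and then 0.716 and 0.695 kb. Of 22 TGF-beta, BMP and myostatin genes 14 rose and 1 fell (median 1.04). The receptors BMPR1A (0.355 and 0 kb, then 1.94 and 1.98 kb) and BMPR2 (0.281 and 0 kb, then 3.18 and 2.13 kb), the transducer SMAD2 (0.333 and 0.333 kb, then 1.75 and 1.40 kb), the inhibitor SMAD7 (0.807 and 1.28 kb, then 4.28 and 3.83 kb) and the secreted FSTL1 (0 and 0.407 kb, then 2.5 and 1.82 kb) were higher. Of 19 WNT genes 7 rose and 4 fell (median 0.33). LRP6, a coreceptor (0.691 and 0.454 kb, then 2.62 and 2.53 kb), and ZNRF3, which removes WNT receptors (0 kb, then 1.47 and 1.31 kb), rose, whereas the ligand WNT2 (0.545 and 1.29 kb) and the secreted inhibitor DKK2 (0.286 and 0.280 kb) had no base at 60 h.

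HO Xgenes, which hold positional identity, had the largest share of rises of the 20 lists as deposited: 21 of 23 tested rose and 0 fell (median 1.31), and 9 rose and 0 fell with quantile scaling, a smaller share than the 14 of 28 myogenic factors. Both 0 h libraries had a base in 13 of 36 annotated members and both 60 h libraries in 24. HOXB2 had 1.61 and 2.15 kb and then 7.09 and 6.60 kb, and HOXC6 1.96 and 1.78 kb and then 6.60 and 6.09 kb. HOXC9 had 2.61 and 1.62 kb and then 6.72 and 6.79 kb, HOXC4 0 kb and then 0.914 and 1.25 kb, and HOXD8 0 kb and then 2.75 and 2.43 kb. HO Xgenes lie side by side, so neighbours share peaks and are not independent. Of 34 HO Xgenes tested in H3K4me3 7 were higher and 7 lower, with a median log2 change of 0.07.

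The remaining lists were near the background or below it. Of 34 extracellular matrix and fibroblast genes 11 rose and 3 fell (median 0.71), with LOX, which crosslinks collagen, at 0.878 and 0.919 kb and then 3.58 and 3.10 kb, and TIMP2, a protease inhibitor, at 0 kb and then 2.47 and 3.23 kb. COL1A1, type I collagen, had 1.11 and 0.701 kb and then 7.91 and 3.14 kb (adjusted p = 0.0178), which was 0.0502 without replicate 1 of 0 h, 0.0913 without replicate 2 of 0 h and 0.064 without replicate 1 of 60 h; 15 regions were gained around it. FN1, fibronectin, had 0.116 kb in 1 library at 0 h and 0.298 kb in 1 at 60 h and was not tested. Of 73 cytoplasmic ribosomal protein genes, which every cell uses, 38 rose and 1 fell (median 0.75), close to all genes, with RPL19 at 1.39 and 0.675 kb and then 5.08 and 4.24 kb, RPL8 at 0 kb and then 1.88 and 1.89 kb, and RPS24 at 0 kb and then 2.39 and 1.49 kb.

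Of 26 writers, erasers and readers of histone acetylation 15 rose and 1 fell (median 0.82). EP300, which encodes p300, had 1.01 and 0.880 kb and then 1.62 and 1.75 kb (adjusted p = 0.00348; log2 change 0.60, and -0.14 with quantile scaling), and CREBBP, which encodes CBP, had no base in any untreated library. The deacetylase HDAC1 went from 0 kb to 4.42 and 3.50 kb and the corepressor NCOR1 from 0 kb to 0.778 and 1.10 kb, while the cytoplasmic deacetylase HDAC6 fell from 0.483 and 0.632 kb to 0 kb. With quantile scaling the median log2 change was below 0 in 5 of the 20 lists: S and M phase cell cycle (-0.30), WNT (-0.14), mitochondrial (-0.07), ID and repressor (-0.06) and extracellular matrix (-0.04).

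**Figure D5:**
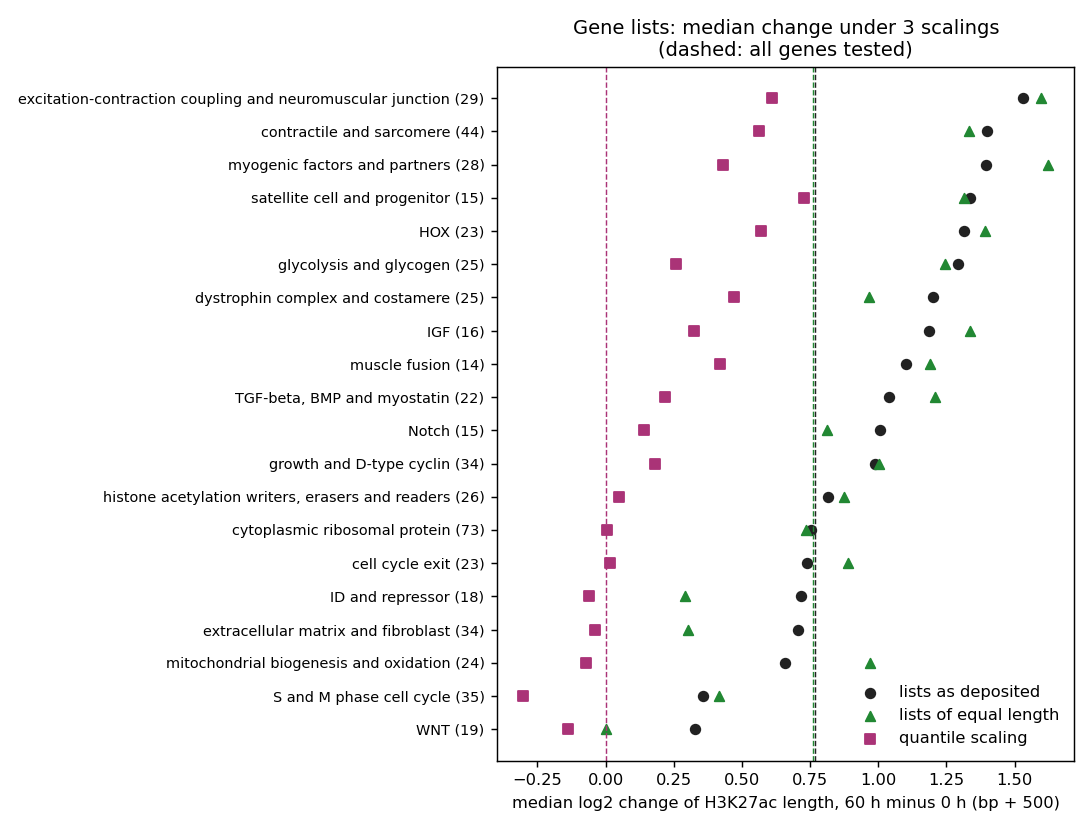
Median log2 change of H3K27ac length, 60 h minus 0 h (horizontal axis), in 20 gene lists with their number of tested genes. Circles are the lists as deposited, triangles lists of equal length (8947 peaks) and squares quantile scaling. Dashed lines give the median of all genes tested, 0.77, 0.76 and 0.00. Coupling, contractile and myogenic genes lie to the right under all 3, and cell cycle and WNT genes to the left.

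Ranked by the gain in length, the first gene was NR2F2 (chromosome 7, 83076119 to 83090250), an orphan nuclear receptor of mesenchymal cells. It had 2.43 and 3.07 kb at 0 h and 13.3 and 11.4 kb at 60 h (log2 change 1.99 ± 0.36 SE, adjusted p = 0.00673), and its adjusted p was 0.0899 when 100 bp were added in place of 500. LOC110260611 on chromosome 5, 75.2 kb from PPARA, had 5.90 and 5.40 kb and then 15.6 and 14.1 kb, and LOC110260072, which overlaps TNRC18 on chromosome 3, 0.650 and 0 kb and then 10.2 and 8.84 kb. LOC110259183, described above, came next, followed by HOXA10, whose windows share peaks with those of HOXA9, with 9.71 and 9.15 kb and then 16.6 and 17.5 kb (log2 change 0.82, and 0.00 with quantile scaling, adjusted p = 1).

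The next genes were of several kinds. ADAM8, a metalloprotease, had 3.63 and 1.24 kb and then 9.71 and 9.31 kb (adjusted p = 0.0164), which was 0.0837 without replicate 1 and 0.0736 without replicate 2 of 60 h. BIN1, which shapes the T-tubules of muscle, had 2.60 and 2.20 kb and then 9.57 and 8.52 kb (adjusted p = 0.00264, and 0.0572 with 100 bp added). LOC100524254, 4.23 kb from POLDIP3, had 0.522 and 0.319 kb and then 7.71 and 6.43 kb, and BAHCC1, a chromatin protein, 0.676 and 0.548 kb and then 7.47 and 6.75 kb.

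CRY2 and PER1 were among the genes that lost most length. CRY2 (chromosome 2, 16587101 to 16620380), a repressor in the clock, had 3.77 and 3.27 kb at 0 h and 0 kb in both 60 h libraries (adjusted p = 0.00117), and PER1, its partner, 3.25 and 3.57 kb and then 0.696 and 0.499 kb (log2 change -1.84 ± 0.15 SE, adjusted p = 0.000417). H3K4me3 did not fall with them: its mean length was 2.1 kb at 0 h and 3.09 kb at 60 h at CRY2 and 5.85 and 6.80 kb at PER1. RIN2 (chromosome 17, 27941333 to 28058150) lost most, from 6.10 and 6.03 kb to 0.568 and 0 kb (adjusted p = 0.00325).

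The others on that list were WFDC1, a secreted protease inhibitor (3.81 and 3.07 kb), POLD3, a subunit of DNA polymerase delta (3.05 and 3.31 kb), HEG1 (3.02 and 2.92 kb), ADM, the peptide adrenomedullin (2.80 and 2.20 kb), and DYDC2 (2.96 and 1.98 kb), all with 0 kb at 60 h. CD96 had 3.63 and 3.43 kb and then 0 and 0.570 kb. ZNF516, a zinc finger factor, had 3.39 and 4.15 kb and then 1.30 and 0.968 kb (adjusted p = 0.0243, from 0.0677 to 0.114 without any 1 library and 0.108 with windows of 2.5 kb). In all the ranked genes named here the libraries of the 2 times did not overlap, which the ranking required.

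The change was compared with that of H3K4me3 at the same genes and times. In H3K4me3, 5350 of 12901 genes were higher at 60 h (41.5%) and 724 lower (5.61%) by limma, whereas quantile scaling called 2286 higher and 3377 lower; the counts that follow use the lists as deposited. Of the 4590 genes with more H3K27ac, 4451 were tested in H3K4me3, and 2380 of these were higher and 81 lower, 53.5 and 1.82%. Over the 8533 genes tested in both marks the shares were 43.1 and 4.03%. Of the 666 with less H3K27ac 533 were tested, and 101 were higher and 100 lower. H3K4me3 was also higher at 60 h by limma at 3 panel genes with no H3K27ac base: ACTA1 had a mean of 0 kb of H3K4me3 at 0 h and 4.53 kb at 60 h, HEYL 0 and 2.51 kb, and CDKN1C 0.452 and 2.70 kb. Contractile genes had a median log2 change of 1.96 in H3K4me3, and 44 of 52 rose.

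The inhibitor arm was set beside these changes by an interaction term in limma, the log2 change in that arm minus the one in untreated cells. It passed an adjusted p of 0.05 in 32.9% of the 8968 genes, in 2024 of the 4590 that rose and in 379 of the 666 that fell in untreated cells. Of 2949 such genes, 1117 were left without replicate 1 and 1048 without replicate 2 of untreated cells at 60 h. With lists of equal length 2268 genes passed, and with quantile scaling 2517. The shortest inhibitor list held 8947 peaks and the shortest untreated list 17276. The counts among genes that rose or fell use the same untreated libraries as those calls and are a description. At MYOG the inhibitor arm had 0 kb in both 0 h libraries and 1.20 and 1.76 kb at 60 h, below the 4.30 and 4.01 kb of untreated cells.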

How the data were processed

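The deposited lists hold the peaks of each library, called by the authors with MACS2 2.1.0 after trimming with Trimmomatic on Sscrofa11.1, per the submitters' processing notes; the sources used here do not give the aligner, the options, the control or the depth. Positions are in bp, and the deposited −log10 p and q values were used to rank or filter peaks within a list. The IgG libraries were not analysed here.

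Only positions and widths were compared. Placement on Sscrofa11.1 was checked: 20.6 to 31.1% of peaks lay within 1 kb of a gene end and 5.13 to 6.36% after a shift of 200 kb. Peak length within 5 kb of either gene end, plus 500 bp, was tested on the log2 scale with limma 3.58.1 (R 4.3.3; 8 H3K27ac libraries, residual df 4, Benjamini-Hochberg over all tested genes) where at least 2 libraries had 200 bp; clusters joined peaks within 10 kb and needed 2000 bp. The fit was tested on simulated data, drawn as normal noise around each gene's mean over all libraries. No group without a base was built in, so the simulation cannot vouch for calls of genes with such a group. Totals used exact permutation tests in Python 3.11.15 with scipy 1.17.1. Named genes are a panel of 41 (MYMX and MYH3 were not in the gene table) and the 10 largest rises and 10 largest falls in length among called genes whose groups did not overlap; a few of these genes are not reported here, though they stay in every fit and count. Regions and clusters were named by the same kind of rank. List examples depart from the planned rule, the largest log2 changes among called members: they were chosen after their values were seen, among members whose call held in every alternative that could test them. Alternatives were scaling, list length, q filter, added length, window, 4 libraries only, replicate block and leaving out each library. Members and lists were chosen with earlier results of these data known, and a gene can be on more than 1 list.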

Additional observations from a re-analysis of the deposited data

Results flagged for a closer look

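The change from 0 to 60 h was compared between the inhibitor arm and untreated cells by an interaction term in limma, and 2949 of 8968 genes differed at an adjusted p below 0.05 (32.9%; 1117 without replicate 1 and 1048 without replicate 2 of untreated cells at 60 h). Of the genes named here 67 were among them, with adjusted p values by limma from 0.000342 to 0.0493. The named genes were chosen for their change in untreated cells, which the difference subtracts, so a difference of the opposite sign is favoured by that choice and its direction is a description. The shortest list of the inhibitor arm held 8947 peaks on placed chromosomes and the shortest untreated list 17276. With lists of equal length 2268 genes differed, and with quantile scaling 2517. The part of list length in the differences of single genes was not tested. Values in parentheses are the log2 change in the inhibitor arm minus that in untreated cells.

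Of the genes that rose in untreated cells, 41 had a smaller log2 change in the inhibitor arm. Among myogenic factors these were MEF2C (-2.07), MYOD1 (-1.55), NFATC1 (-1.32), VGLL2 (-1.28) and MYOG (-1.25). Sarcomere and membrane genes were MYL2 (-2.47), CAPN3 (-2.10), TTN (-1.90), LAMA5 (-1.70), MYL1 (-1.40), MYLPF (-1.29), DAG1 (-1.23) and MYH7 (-1.04). Coupling genes were TRDN (-2.66), ACHE (-2.00), SRL (-1.30), ATP2A2 (-1.09), CACNB1 (-0.79) and CHRND (-0.70). Metabolic genes were LDHA (-2.91), FABP3 (-2.12), SLC25A4 (-1.63), PYGL (-1.47), SDHB (-1.47) and PYGM (-1.29). Growth, cell cycle and signalling genes were RPS6KB1 (-1.67), SPRED1 (-1.61), AURKB (-1.58), ZNRF3 (-1.58), SESN2 (-1.55), NUMB (-1.54), GADD45A (-1.29), IRS2 (-1.27), CCND3 (-0.90) and SMAD2 (-0.57). The others were the chromatin genes HDAC1 (-2.83), NCOR1 (-1.52) and EP300 (-1.46), and LOC100524254 (-1.98), TIMP2 (-1.93) and HOXC4 (-1.65).

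A further 10 genes that rose in untreated cells had a larger log2 change in the inhibitor arm: BIN1 (2.21), SMAD7 (1.65), HOXC6 (1.61), CASQ1 (1.23), PAX7 (1.14), BAHCC1 (1.13), CHRNA1 (0.96), LRP6 (0.90), MET (0.43) and HOXA10 (0.34). The 16 genes that fell in untreated cells had a positive difference: WFDC1 (2.97), DYDC2 (2.40), CRY2 (1.80), MYBL2 (1.60), ID2 (1.55), HES1 (1.44), FOSB (1.34), CDK1 (1.28), HDAC6 (1.08), POLD3 (1.04), AURKA (0.69), KIF20A (0.69), CD9 (0.69), TFAM (0.67), DKK2 (0.65) and HEG1 (0.49). The difference includes the levels at 0 h, which the arms do not share.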

How the results depend on the processing

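Of 127 named genes, 119 were called. Over 1654 comparisons with an alternative 1567 kept direction and side of the threshold, 62 lost the call, 12 gained it and 13 changed sign, in 9 genes. The list examples among the named genes were picked for a call that held in every alternative that tested them. Their agreement was fixed by that choice, so the 1567 is no measure of how stable calls are in general. Over all genes tested, 4590 were higher with the lists as deposited, 1614 with quantile scaling and 2836 with lists of equal length. Over 75 comparisons of the 10 named clusters 72 kept both and 3 lost the call, all with quantile scaling. These clusters were picked as the largest called changes, so their agreement was favoured by that choice too.

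Quantile scaling called 1614 genes higher and 1629 lower and 921 clusters higher and 740 lower; in H3K4me3, where it was added after seeing the data, it called 2286 higher and 3377 lower. It made the log2 change negative for MYF5 (-0.65), MYF6 (-0.079), PAX7 (-0.50), MEF2D (-0.53), ID1 (-0.25), CDKN1A (-0.66), PFKM (-0.052) and EP300 (-0.14), and by limma MYF5 (adjusted p = 0.018), PAX7 (0.0203) and MEF2D (0.0466) were then lower at 60 h. Lists of 8947 peaks called 2836 genes and 892 clusters higher, and gave -0.50 for MEF2D. Lists of 17276 peaks, used for totals and regions, gave a width ratio of 1.32 in place of 1.18. With them the distal share difference was -12.3 in place of -9.49 percentage points. With a −log10 q of at least 5, 236 clusters were lower, the width ratio was 1.24 and the distal difference -15.9; 5600 regions were gained, 3233 lost and 3362 kept, 2936 were gained and 2792 lost at distal sites, and 441 were lost at gene ends. With presence over at least 50% of a region 3634 were kept, and with gene ends within 1 kb 505 were lost there. TNNT1 was positive with 2000 bp added (0.024), with the q filter (0.30) and without WT 60 h replicate 2 (0.60), and ran from -0.630 to 0.60 without any 1 library; CDKN1A ran from -0.0263 without WT 0 h replicate 2 to 0.351.

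Without any 1 library, 2096 to 4154 genes were higher and 298 to 603 lower, 1048 to 2501 differed between the arms, and 616 to 1346 clusters were higher and 143 to 351 lower. Gained regions numbered 9144 to 12417 (5573 to 7840 distal, 3571 to 4577 at gene ends), lost 5889 to 7780 (5029 to 6540 distal, 860 to 1240 at gene ends) and kept 7925 to 8825, since presence is then asked of fewer libraries. Ratios were 1.15 to 1.30 for peak number, 1.46 to 1.64 for covered length and 1.16 to 1.20 for width, and the distal difference -10.3 to -8.65. A group left with 1 library is assumed to vary like the others.

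With the replicate number as a block, 4608 genes were higher and 654 lower, 2838 differed between the arms, and 1584 clusters were higher and 395 lower; no named gene lost its call. Same-numbered libraries did not deviate together in peak length (correlations -0.0134 to 0.0389). This cannot tell whether they came from the same culture or batch, which the labels do not state. Windows at gene starts alone and promoter sequences were not run, because the gene table gives no strand and no genome was used here. Depth is unknown, so a missing peak shows only that none was listed.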

Other observations

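Chromosome X stood out in the share of H3K27ac regions gained at 60 h. Of its 494 regions 186 were gained (37.7%) and 54 lost (10.9%), against 25.4 and 16.1% of all regions, and the autosomes ranged from 19.9 to 30.4% gained. Chromosome 10 was the autosome with more lost than gained regions, 256 against 226 of 1134. Chromosome 2, which holds the troponin stretch, had 782 gained and 327 lost of 2575. These shares were not tested.

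The largest loci of gain and loss were of unlike extent. Within 100 kb of a gene, at most 39 regions were gained, at RUNX1, and at most 12 lost over all 19533 genes. NFIX had 19 gained and 0 lost regions, COL1A2 15 and 1, BAHCC1 14 and 0, and LDB3, a Z-disc protein, 9 and 0. CD96 had 2 gained and 10 lost regions, and ZNF516 0 and 10.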
